A study of Mus musculus with 12 samples.

Results

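On arrays of mature mouse oocytes, 167 probes that carry a Celera gene identifier were above background on each of 6 Dicer-knockout arrays and on none of 6 wild-type arrays. They were chosen by that pattern, from the scanner's signal-over-noise score (S/N, above background at 3 or more, with spots bearing a quality flag of 5000 or more taken as missing), out of 27930 Celera-identifier probes and 33012 gene probes in all. The 167 probes stand for 166 identifiers, since mCG20222.2 is represented by 2 of them. Because the choice used the contrast of knockout with wild type, the levels and calls below are descriptions of that choice. None of them is a test of it.

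The 2 groups were mature oocytes titled as Dicer knockout, on 6 arrays, and mature oocytes titled as Dicer wild type, on 6 arrays. What allele was deleted, by which Cre, in which strain and at what age is not stated by the labels, which describe each sample as a single cell. Dicer itself had no named probe, so its own transcript could not be checked. Replicate numbers given below follow the order of the titles within each group and do not come from the labels. The arrays are 1-colour, and each was hybridized with digoxigenin-labelled cRNA amplified from total RNA. Nothing in the labels says that arrays came from separate females, so the spread between arrays may be technical, and precision is limited by there being 6 arrays a group. If an array's RNA came from more than 1 cell, fewer cells of a kind and less RNA per cell cannot be told apart.

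Dicer is the RNase III enzyme that cuts microRNA precursors and long double-stranded RNA into the small RNAs that guide Argonaute proteins to messenger RNAs. In mouse oocytes, microRNAs are known to act weakly, while endogenous small interfering RNAs made from pseudogene and antisense transcripts pair with their parent messengers. Mature oocytes make almost no new RNA, so their transcript levels reflect what was stored and what was degraded. Identifiers that begin with mCG are gene models of Celera's annotation of the mouse genome. The RefSeq gene table of assembly GRCm38.p6 paired 0 of the 27930 Celera-identifier probes with a symbol. The lack of names among the 167 probes is thus shared by all probes of that type, and no function is given to any of them. Neither the probe sequences nor their positions in the genome were used here.

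The oocyte markers with a named probe were present in both groups. Of 16 oocyte markers, 5 had a named probe, and all 5 (Mos, Obox1, Obox2, Obox3 and Cphx1) were above background on 6 of 6 knockout arrays and on 5 or 6 wild-type arrays. Their summed signal was 2204430 to 4174490 intensity units on knockout arrays, against 1626490 to 3324520 on wild-type arrays. Most of it was Obox1, with 1636573 to 3063943 and 1459840 to 2946068. Singly, Mos (10222 to 45688 on knockout, 265 to 1787 on wild-type arrays) and Cphx1 (373764 to 573947 and 58621 to 164343) were higher on all knockout arrays. The ranges of Obox1, Obox2 and Obox3 overlapped between the groups. Of the 14 granulosa and cumulus markers 0 had a named probe, so the presence of those cells could not be read. Of 7 theca and stroma markers 1 was named, Sfrp4, with signals of 136 to 734 on knockout and 137 to 220 on wild-type arrays, and of 5 blood markers 1 was named, Hba-a1, with 89.8 to 595 on knockout and 133 to 621 on wild-type arrays. Brightness also divided the groups: 7361 to 9598 gene probes were above background on knockout arrays, against 5707 to 7102 on wild-type arrays, and the 6088 probes that entered the fit had a median signal of 2736 to 6732 on knockout arrays, against 1069 to 2580 on wild-type arrays. The titles number the knockout arrays before the wild-type arrays without interleaving, so array order and genotype cannot be told apart. Brightness moved with every value given below, and its part in them was not tested.

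**Figure D1:**
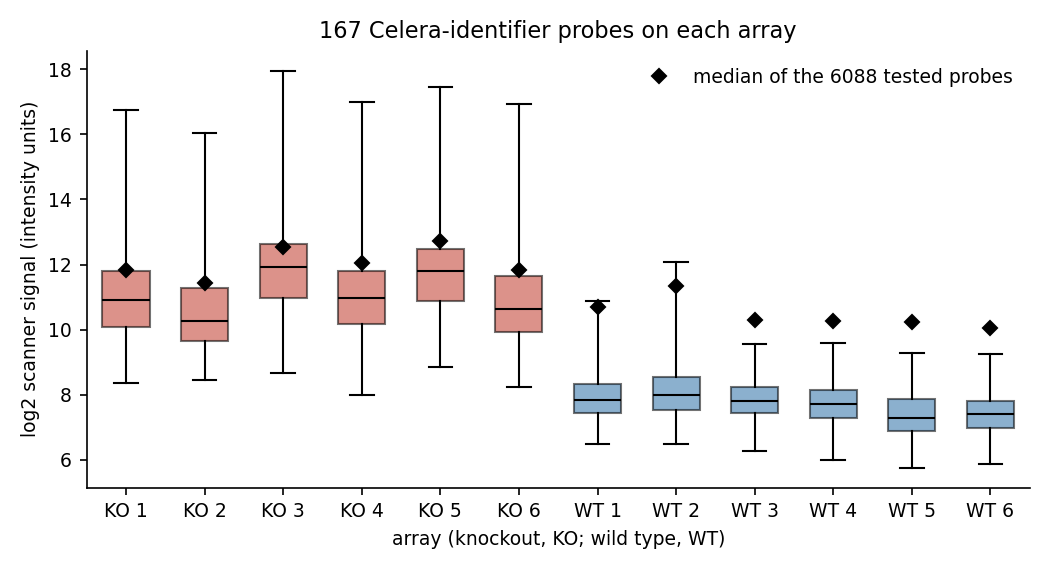
Boxes show the log2 scanner signal of the 167 probes on each of 6 knockout and 6 wild-type arrays (line, median; box, quartiles; whiskers, lowest and highest probe), and diamonds show the median of the 6088 tested probes of the array. The probes' medians lie between 1231 and 3872 intensity units on knockout arrays, below the diamond on each, and between 155 and 256 units on wild-type arrays.

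Over the 167 probes, the median signal in knockout oocytes ranged from 457 to 128222 intensity units, with a median of 1969 and quartiles of 1274 and 3710. The same probes had median signals of 102 to 664 in wild-type oocytes, with a median of 205. Most thus had a median between 1000 and 10000 units in the knockout: 9 of 167 reached 10000 units, and 22 stayed under 1000. Within a knockout array they lay at a median of percentile 86.5 among all gene probes, from 69.8 to 98.7. The other 4119 Celera probes above background on all 6 knockout arrays had a median percentile of 92.9 and a median signal of 8306. Among such probes the 167 were thus on the dim side. On wild-type arrays the 167 probes lay at a median percentile of 44.6.

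The brightest of the set was mCG13815.1. Its signal was 66906 at its lowest, 128222 at its median and 253810 at its highest on knockout arrays, against 151, 309 and 354 on wild-type arrays. Its log2 signal after quantile normalization averaged 16.33 ± 0.37 in knockout and 8.35 ± 0.75 in wild-type oocytes (SD, n = 6 each), with no overlap between the groups. Since no member was well above background on a wild-type array, each fold was set against a floor and is called a bound. The floor was the lowest signal well above background on each wild-type array, or the probe's own signal where that was higher. Arrays whose spot was flagged were left out. That lowest signal was 91.6 to 123 units, under the 167 probes' median on each wild-type array (155 to 256). Most bounds are thus close to the plain knockout to wild-type ratio. They carry its error, change with the scaling and are not strict limits. For mCG13815.1 the bound was 253-fold. It was 162-fold with arrays centred on the median of their tested probes, the lowest of the scalings run for it. For 164 of the 167 probes the lowest bound came from quantile normalization over the tested probes alone.

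Next in brightness came mCG1036310.1, with 25137, 48282 and 68276 units (lowest, median and highest) on knockout arrays and 203, 398 and 989 on wild-type arrays. The signals of mCG63350.2 were 23444, 42709 and 58593 on knockout arrays and 155, 279 and 325 on wild-type arrays. The probe mCG112794 gave 16724, 39215 and 72899 on knockout arrays, against 123, 149.9 and 234 on wild-type arrays. In these 3 the dimmest knockout array was over the brightest wild-type array. Their bounds were 53.5-fold, 77.9-fold and 121-fold, or 37.1-fold, 47.9-fold and 64.4-fold under the scaling that gave each its lowest. Their highest wild-type S/N was 2.94, 2.61 and 2.71, close below the threshold.

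The probe of mCG14666.2 in this set had 15019, 29005 and 39487 units on knockout arrays and 115, 177 and 308 on wild-type arrays. Its bound was 80.1-fold, or 44.8-fold under its lowest scaling. For mCG18394.2 the signals were 11297, 19787 and 71502 on knockout arrays, against 100.1, 195 and 364 on the 5 wild-type arrays with an unflagged spot. The bound was 55.5-fold, or 32.3-fold under its lowest scaling. It was knockout replicate 1 that gave the 71502, while the other knockout arrays lay at 20424 or less. Further down, mCG9822.1, mCG116470.2 and mCG116158.1 averaged log2 signals of 12.97 ± 0.39, 12.82 ± 0.51 and 12.49 ± 0.61 in knockout oocytes and 8.07 ± 0.73, 8.60 ± 0.30 and 8.64 ± 0.47 in wild-type oocytes (SD, n = 6 each). Their bounds were 29.99-fold, 18.6-fold and 14.4-fold, or 19.1-fold, 12.4-fold and 9.58-fold under the lowest scaling.

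The probe ranked 10, mCG16084.1, differed from the other 9. It had 4501, 8875 and 22018 units on knockout arrays, but 555, 664 and 4357 on wild-type arrays, and after quantile normalization its groups overlapped (12.45 ± 0.40 in knockout and 10.58 ± 0.91 in wild-type oocytes, SD, n = 6 each). The scanner's own error for this spot was 379 to 2119 units on wild-type arrays, with a median of 647, the highest of the 167 probes, whose median was 163. Its bound was 3.65-fold.

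**Figure D2:**
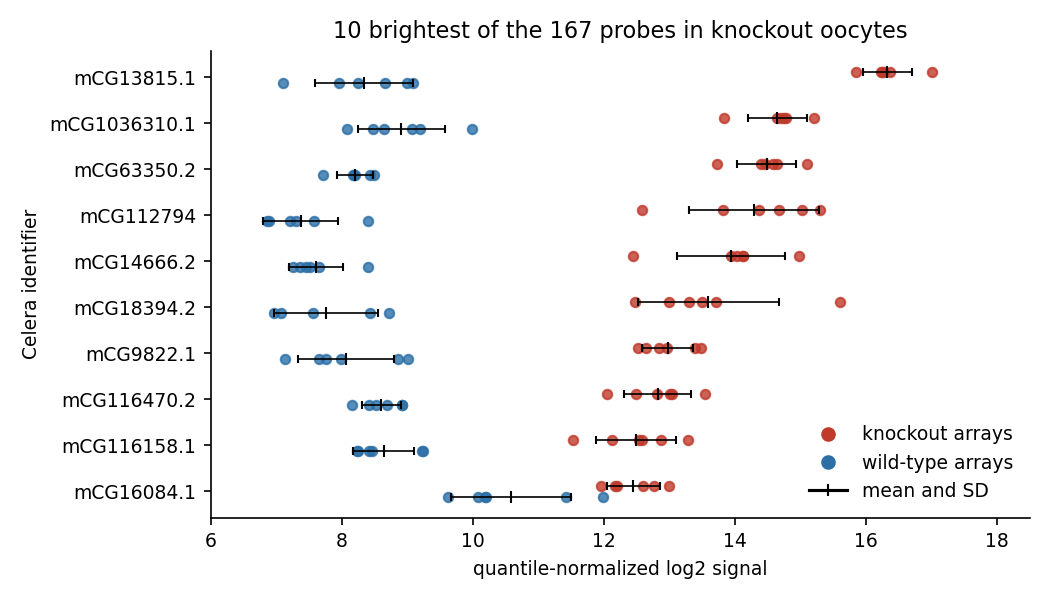
Points give the quantile-normalized log2 signal of each array for the 10 brightest of the 167 probes, knockout above wild type in each row, with the mean and SD (n = 6, or 5 wild-type arrays for mCG18394.2). In 9 of the 10 rows the knockout arrays lie to the right of all wild-type arrays, and mCG16084.1 is the exception.

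At the dim end, mCG124889.1 had 327, 457 and 727 units on knockout arrays and 99.7, 163 and 212 on wild-type arrays. The dimmest probes also included mCG11341.1, with 254, 602 and 4446 on knockout and 79.6, 102 and 291 on wild-type arrays, where the knockout's lowest array lay under the wild type's highest. For mCG127095 the signals were 418, 716 and 1877 on knockout arrays and 152, 221 and 454 on wild-type arrays, again with an overlap. The last of the dimmest 5, mCG147949 and mCG50245.1, averaged log2 signals of 9.22 ± 0.51 and 9.14 ± 0.22 in knockout oocytes and 7.26 ± 0.54 and 7.28 ± 0.69 in wild-type oocytes (SD, n = 6, but 5 wild-type arrays for mCG147949). For these 5 the bounds lay between 2.09-fold and 3.72-fold after quantile normalization. With quantile normalization over the tested probes alone the highest of them was 1.45-fold, for mCG11341.1, and mCG124889.1 had no bound above 1.

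Over the whole set the median bound was 5.82-fold. It was 2-fold or more for 165 of 167 probes, 4-fold or more for 119 and 16-fold or more for 14. With arrays centred on the median of their tested probes, which sets those medians equal, the median bound was 3.42-fold. Then 132 probes were at 2-fold or more and 66 at 4-fold or more, and 2 of the 167 had no bound above 1. With quantile normalization over the tested probes alone the median bound was 2.95-fold. There 122 probes were at 2-fold or more and 55 at 4-fold or more, and 4 had no bound above 1. With the in vitro transcription controls as the scale, the median bound was 12.2-fold. On the scanner's own signal the dimmest knockout array was over the brightest wild-type array for 162 of the 167. In the fit over all 6088 tested probes (limma, adjusted p under 0.05), 166 of the 167 were called higher in the knockout, where 28.1% of all tested probes were, and their median log2 fold change was 2.56 against 0.18 over all tested probes. For 136 of the 167 the groups did not overlap after quantile normalization, against 15.2% of all tested probes. Both counts and the median fold change follow from how the probes were chosen. Since none was above background on a wild-type array, each of the 167 entered the fit through its 6 knockout arrays alone. The probe not called, mCG145938, which was named after its value was seen, had 631, 937 and 1133 units on knockout arrays and 154, 384 and 511 on wild-type arrays.

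Wild-type detection was graded. Of the 4286 Celera probes above background on all 6 knockout arrays, 167 (3.90%) were above background on no wild-type array, 209 on 1, 216 on 2, 225 on 3, 265 on 4, 398 on 5 and 2806 on all 6. A further 188 Celera probes were above background on 5 knockout arrays and on no wild-type array. In the opposite direction, 3 Celera probes were above background on all wild-type arrays and on no knockout array. Under other identifiers, 8 of 188 AK-identifier probes above background on all knockout arrays met the same rule (4.26%), as did 3 of 65 RefSeq probes (4.62%). Those 3 RefSeq genes were Fgf21, a fasting hormone, with median signals of 7120 in knockout and 164 in wild-type oocytes, Pdxp, the pyridoxal phosphatase, with 3525 and 215, and Unkl with 2128 and 218.

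**Figure D3:**
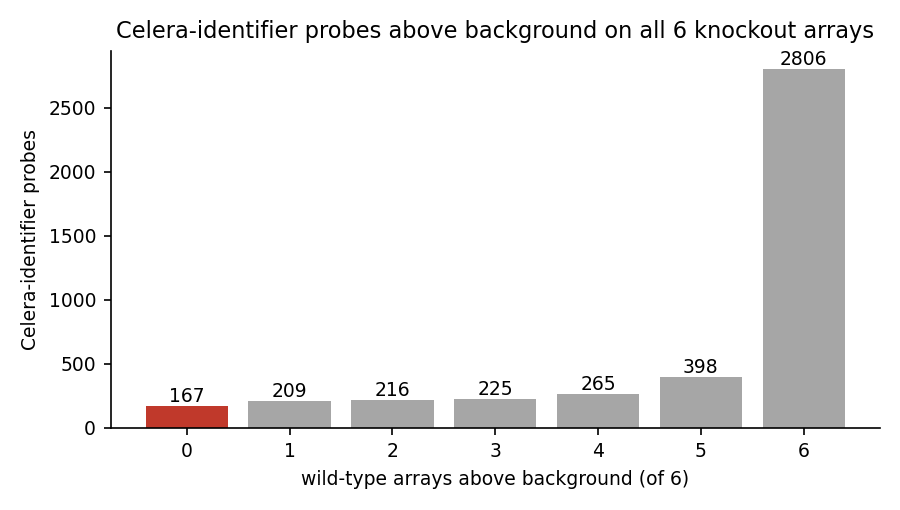
Bars count the 4286 Celera-identifier probes above background on all 6 knockout arrays by the number of wild-type arrays on which they were above background. The 167 probes of the set are the bar at 0, next to 209 at 1, and 2806 probes stand at 6.

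Membership went with brightness in the knockout. When those 4286 probes were divided into eighths by mean knockout signal, the dimmest eighth held 68 of the 167 probes (12.7% of its 536) and the next held 50 (9.33%). The brightest 3 eighths held 2, 3 and 1. The share above background on all wild-type arrays ran the other way, from 19.4% in the dimmest eighth to 97.9% in the brightest. The probe of mCG13815.1, the single one in the brightest eighth, stood among 536 probes of which 525 were above background on every wild-type array. The eighths and the wild-type calls come from values that the rule also used. The gradient and the place of mCG13815.1 in it therefore describe the choice and were not tested.

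**Figure D4:**
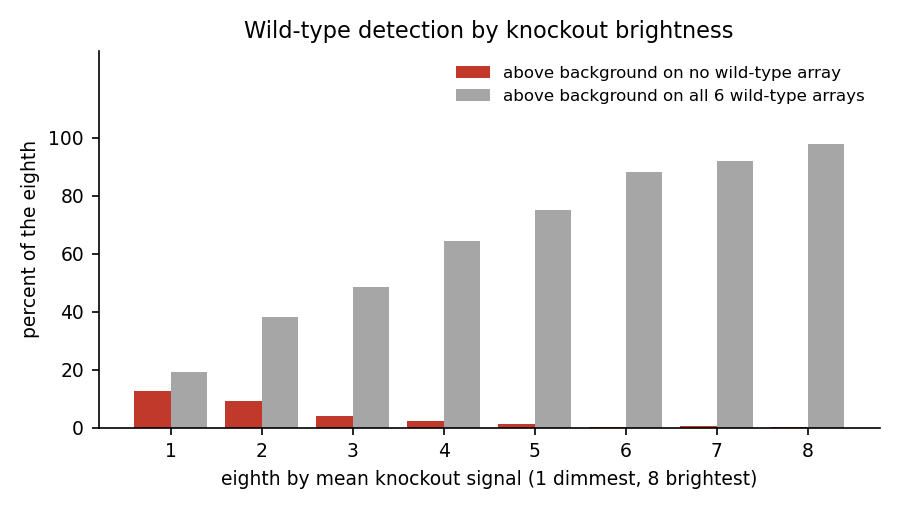
For Celera-identifier probes above background on all knockout arrays, in eighths by mean knockout signal, bars give the percent above background on no wild-type array (left bar) and on all 6 (right bar). The left bars are 12.7% in the dimmest eighth and 0.187% in the brightest, and the right bars are 19.4% and 97.9%.

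Below the threshold, the wild-type spots of these probes were not all at the level of silent probes. An S/N of 1 or more was found for 35.3% to 50.9% of the 167 probes on a wild-type array. The 9879 Celera probes above background on none of the 12 arrays reached it in 19.5% to 23.1% on the same arrays. The median S/N of the set was 0.45 to 1.03 on wild-type arrays, against -0.13 to -0.02 for those silent probes, and highest on wild-type replicate 2, which also had the most probes above background, 7102. For 53 of the 167 the highest wild-type S/N was over 2.5, and for 11 it was under 1, among them mCG1030501.1 with 0.96, mCG114049.1 with 0.47 and mCG5227.3 with 0.32. The threshold therefore separated neighbours with like values. Just inside it were mCG22409.1 and mCG133574.2, each with a highest wild-type S/N of 2.99, and mCG132921.1 with 2.97. Just outside were mCG5208.1 with 3.01, mCG7181.2 with 3.02 and mCG20824.2 with 3.03. On the knockout side, mCG7742.2, mCG12239.1 and mCG120167.1 entered with a lowest S/N of 3.03, 3.05 and 3.06, and mCG21668.2, mCG132760 and mCG134321.1 stayed out with 2.99, 2.97 and 2.97.

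How far the pattern carried over to an array that had no part in the choice was read by leaving out each array in turn. Chosen without 1 knockout array, 173 to 275 Celera probes met the rule, and 60.7% to 96.5% of them were above background on the array left out. Of all Celera probes above background on the other 5 knockout arrays, 89.7% to 99.2% were. Among Celera probes without any choice, 24.1% to 31.5% were. The lowest share in each range was that of knockout replicate 2, which had the fewest probes above background, and without which the set would hold 275 probes. Chosen without 1 wild-type array, 185 to 234 probes met the rule, and 71.4% to 90.3% of them were below the threshold on the array left out, against 92.8% to 95.4% of all Celera probes that were below it on the other 5. Among Celera probes without any choice, 76.7% to 81.2% were below it on the same arrays, so the chosen probes were not far from that share. The 71.4% was that of wild-type replicate 2, the wild-type array with the most probes above background. There the chosen probes were under the share of all Celera probes (76.7%), and on the other wild-type arrays they were over it.

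The median SD of log2 signal over the 6 arrays was 0.54, against 0.52 over 2159 other Celera probes of like brightness. The same arrays were often the extremes: 79 of 167 probes had their lowest scanner signal on knockout replicate 2 and 93 had their highest on knockout replicate 3. Replicate 2 had the lowest median of the tested probes among knockout arrays (2736 units). The highest median was that of replicate 5 (6732, against 5937 on replicate 3), where 54 of the probes had their highest signal. After quantile normalization 61 were still lowest on replicate 2 and 66 highest on replicate 3. Over the probes, the correlation of log2 signal between 2 knockout arrays had a median of 0.787 (15 pairs, 0.592 to 0.884), and between 2 wild-type arrays, where the probes are near the noise floor, 0.324 (0.224 to 0.443). The 4119 other Celera probes gave 0.950 between knockout arrays, over a wider span of brightness.

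A few probes departed from this. The widest spread was that of mCG9150.1, with 352, 2395 and 11076 units (lowest, median and highest) on knockout arrays and 80.7, 141 and 307 on wild-type arrays, an SD of 1.79 on the log2 scale. It was brightest on knockout replicate 2, the array on which 79 of the 167 were dimmest. The probe of mCG8017.2 had 488, 1289 and 8328 on knockout arrays and 92.2, 124 and 140 on wild-type arrays (SD 1.36 in the knockout). That of mCG21211.2 had 833, 6811 and 9464 on knockout arrays and 101, 219.5 and 254 on wild-type arrays (SD 1.33 in the knockout), and owed its spread to knockout replicate 5 alone, the other 5 arrays being at 5163 or more. Steadiest were mCG5909.2 and mCG121499.2, each with an SD of 0.16, and mCG50245.1 with 0.22.

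The array carries further probes for 26 of the 166 identifiers, 28 in all, which did not meet the rule themselves. A further probe that met it is counted as a member, so none of the 28 could show the members' full pattern. They were read as a second view of the same genes, from the same arrays and so with no test. Of the 28, 14 were above background on all knockout arrays, and 10 (35.7%) were both above background there and at least 2-fold higher in the knockout after quantile normalization. Among 3759 probes of other Celera genes with 2 or more probes, 729 (19.4%) were above background on all knockout arrays. Those 2-fold higher as well were 251 (6.68%). These genes did not need to have any probe above background, so the shares differ in detection as well as in direction. Of the remaining 18 of the 28, 5 were above background on no array, and 2 were at least 2-fold lower in the knockout. These 2 were a probe of mCG4120.3 (-1.27 on the log2 scale) and the second probe of mCG11341.1 (-1.53). The latter had medians of 242 in knockout and 427 in wild-type oocytes. It was above background on 0 knockout and 2 wild-type arrays.

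For 8 of the 28, all knockout and 1 to 5 wild-type arrays were above background, and 7 of these 8 were at least 2-fold higher in the knockout. The second probe of mCG14666.2 was the brightest of them, with 158492, 282017 and 334433 units (lowest, median and highest) on knockout arrays and 118, 305 and 3047 on wild-type arrays, so both probes of this identifier separated the groups. The identifier mCG20222.2 has 3 probes. Its 2 members had median signals of 3347 and 1529 in knockout and 239 and 156 in wild-type oocytes, and the remaining probe had 6356, 10283 and 19017 on knockout arrays against 149, 202 and 1401 on wild-type arrays, above background on 2 wild-type arrays. For mCG22989.2 the second probe had 9080, 10734 and 21942 on knockout arrays and 77.01, 159 and 2111 on wild-type arrays, above background on 1 of them. For mCG5227.3 it had 559, 2359 and 8831 on knockout arrays and 235, 370.4 and 876 on wild-type arrays, which overlap. The exception among the 8 was mCG8017.2, whose second probe had 584, 817 and 1346 on knockout arrays and 295, 746 and 1254 on wild-type arrays.

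In 6 of the 28 the second probe was above background on all 12 arrays, and 3 of these 6 were at least 2-fold higher in the knockout. For mCG15237.2 it had 29880, 44552 and 93184 units on knockout arrays and 2505, 3582 and 6351 on wild-type arrays, a difference of 2.17 on the log2 scale, while the member had 5239, 6363 and 16205 against 159, 188 and 488, a difference of 4.26. The 3 probes of mCG4120.3 disagreed. The member had 940, 5108 and 8773 units on knockout arrays and 104, 193 and 288 on wild-type arrays, and a second probe had 18425, 62675 and 131478 against 1605, 2206 and 4423. The remaining probe, above background on 5 arrays of each group, had 729, 1017 and 1629 on knockout arrays and 421, 1145 and 2304 on wild-type arrays.

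For the identifiers that follow, the second probe differed by less than 2-fold after quantile normalization. For mCG17468.2 and mCG13553.2, which were named after their values were seen, the second probes were among the brightest on the array: that of mCG17468.2 had a median of 742495 in knockout and 284124 in wild-type oocytes, and that of mCG13553.2 had 675645 and 463200. After quantile normalization these differed by 0.04 and -0.69 on the log2 scale, and the members, with median knockout signals of 1382 and 1084, by 1.97 and 2.23. Second probes that were silent in both groups belonged to mCG128446.2 (340 in knockout and 323 in wild-type oocytes, beside 4832 and 141 for the member), mCG145114 (189.7 and 212, beside 4597 and 264), mCG64442.2 (124 and 163, beside 4654 and 282), mCG114049.1 (172 and 216, beside 3946 and 278, with 1 knockout spot at 124515 but an S/N under 3) and, outside the naming rule and named after its values were seen, mCG133410.3. Those of mCG1030501.1 and mCG2480.2 were above background on 1 wild-type and 0 knockout arrays each, with medians of 144 and 271 in knockout and 179 and 317 in wild-type oocytes. Whether such probes read other exons, other transcripts or other genes was not tested, since their sequences were not used here.

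**Figure D5:**
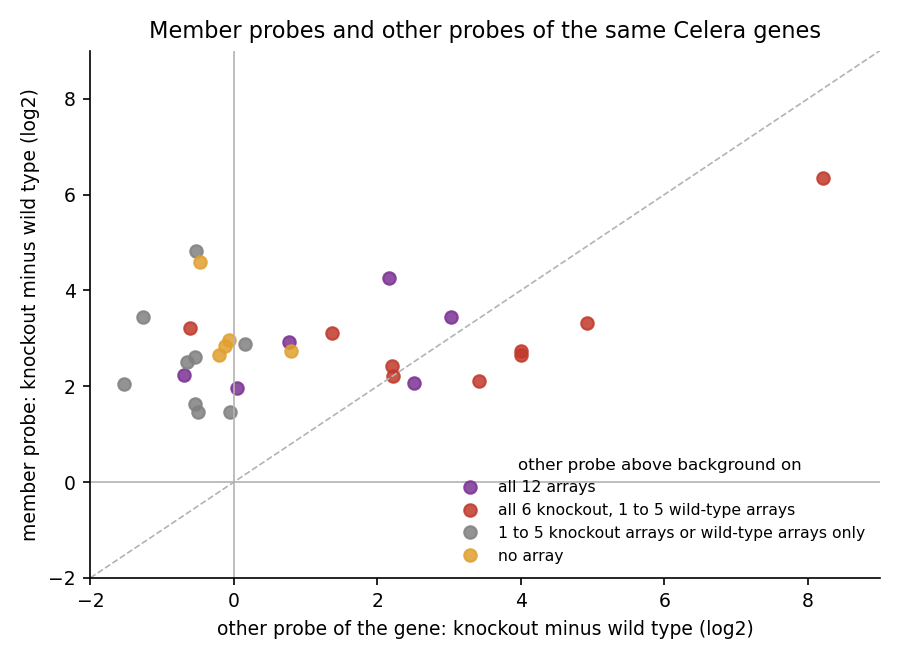
Each point is a member probe paired with another probe of its Celera identifier, with the knockout minus wild-type difference in mean quantile-normalized log2 signal of the other probe on the horizontal axis and of the member on the vertical axis. Colour gives where the other probe was above background, and the dashed line marks equal differences. The members lie between 1.45 and 6.34, and the other probes between -1.53 and 8.21, with 10 of 28 at 1 or more and above background on all knockout arrays.

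On the array surface the probes were found in all 4 quadrants, with 59 (35.3%) in that of the first rows and first columns and 36, 41 and 31 elsewhere. The first quadrant held 24.9% of all Celera probes and 27.8% of those above background on all knockout arrays.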

How the data were processed

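Mature oocytes of 2 genotypes were profiled on 12 arrays, 6 per group, with groups taken from the titles. Per the file headers, Mouse Genome Survey Microarrays, version 1.0, were imaged on the AB1700 system (software 1.1.1). The deposited scanner files give each spot's signal and error as linear intensity, the software's normalized intensity, a score for signal over noise, and quality flags, which are other values (bit sums), per the file headers. The authors' deposited series table holds intensities too; no source used here says how they were made.

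A spot flagged 5000 or above counted as missing. The log2 signals of 33012 gene probes were quantile-normalized over the 12 arrays, which gives each array 1 distribution, so a difference is read against all other probes. Probes with a score of 3 or more on at least 6 of 12 arrays, 6088 in all, entered 1 fit of knockout against wild type (limma 3.58.1, R 4.3.3, two-sided, Benjamini-Hochberg, threshold 0.05). The fit was tested on simulated data. Names came from RefSeq's gene table (GRCm38.p6), which named 316 gene probes. No array was paired, since the labels give no replicate numbers. The 167 probes, the lists and the tests were chosen with earlier results of these data known. Members were named by brightness (10 highest, 5 lowest), by SD over knockout arrays (3 widest, 3 narrowest), by nearness to the score threshold, and where the identifier has another probe (12 brightest). Gene lists also held small RNA machinery, meiotic cell cycle, early embryo, oocyte and endogenous small interfering RNA genes, with 0 among the 167 probes. That 0 was fixed beforehand, since 0 Celera-identifier probes had a symbol, so it does not say that such genes are absent. Alternatives were other scalings, normexp, filters, floors, score thresholds and leaving out each array. Figures were drawn with matplotlib 3.10.9.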

Additional observations from a re-analysis of the deposited data

Results flagged for a closer look

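Among the named probes, 74 groups of arrays were searched for an array far from the others, and 3 were found. A rate of 1 in 20 would give 3.7. Some of these probes were named for their SD or their S/N, so that rate need not hold and nothing is read from the count. The probe of mCG21211.2, which was named for its wide SD, stood at a log2 signal of 9.03 on knockout replicate 5. The other knockout arrays had 11.83 to 12.67. That of mCG12239.1 stood at 11.28 on knockout replicate 3, against 9.57 to 9.97. In wild-type oocytes the member probe of mCG14666.2 stood at 8.40 on replicate 1, against 7.25 to 7.66, below the S/N threshold there.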

How the results depend on the processing

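The set held 114, 205 and 208 probes at an S/N of 2, 4 and 5, 161 with all 12 spots unflagged and 167 with flags ignored, against 167. Leaving out 1 array gave 173 to 275, the highest without knockout replicate 2. The median bound of 5.82-fold was 3.42-fold with arrays centred on their tested probes' median, 4.18-fold with cyclic loess, 2.95-fold with quantile normalization over the tested probes, 9.49-fold and 12.2-fold with hybridization and in vitro transcription controls, 10.4-fold in the authors' deposited table and 2.78-fold against a floor at percentile 5 of the signals above background. It was 5.60-fold with the scanner software's normalized signal and with normexp, and 5.33-fold to 5.92-fold with 1 array left out. Of the 167 probes, 141 to 167 were called higher over the scalings, background correction and filters and 165 or 166 with 1 array left out. Over all tested probes, 1711 were called higher, 3460 and 4038 with hybridization and in vitro transcription controls, 3842 in the deposited table, and 1543 to 1827 with 1 array left out. Why these values moved was not tested. No paired analysis was possible because the labels carry no replicate numbers.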
